A study of Rattus norvegicus with 24 samples.

Results

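The 46 interferon-stimulated genes described here are genes that cells switch on when they sense interferon, together with the regulators, antigen-processing genes and chemokines that answer interferon gamma. They were found by gene symbol in the annotation of the array, and each gene was read from its brightest probe set with exactly 1 symbol over the 24 arrays. In this way 43 of the 46 were measured among 14217 genes in all. Ifi47, Gbp5 and Xaf1 had no probe set of their own in that annotation and were left out. The rule reads symbols and brightness over all arrays and no difference between groups, but the genes were listed with earlier results of these data known.

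The 24 animals were male Sprague-Dawley rats recorded as 17 weeks old, and lung RNA of each (right caudal lobe) was measured on 1 Affymetrix Rat230_2 array. The rats formed 6 groups of 4 that breathed either air or cigarette smoke through the nose, and then air, Iraqi sand or manufactured silica sand with the whole body. Smoke at 0.48 mg WTPM per litre was breathed in daily sessions of 3 hours, 5 days each week, for 5 weeks per the treatment labels and for 6 weeks per the series text. Each dust, at 1 mg per cubic metre, was breathed over 2 weeks in sessions of 18 hours on all 7 days. The groups are called air, sand, silica, smoke, smoke with sand, and smoke with silica, and every animal, controls included, went through both the nose-only and the whole-body sessions. For each gene the crossed design asks whether smoke, either dust or their combination changed its level.

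Type I interferons bind the receptor made of Ifnar1 and Ifnar2, and the kinases Jak1 and Tyk2 then activate STAT2, which joins Irf9 in the complex ISGF3. This complex binds interferon-stimulated response elements (ISRE) in promoters of antiviral genes such as Mx1 and Isg15. Interferon gamma, made mainly by T and NK cells, signals through Ifngr1 and Ifngr2 to gamma-activated sites (GAS), and raises Irf1, guanylate-binding GTPases, chemokines and the machinery that cuts and loads peptides onto MHC class I. In the lung these genes have a basal level that airway and alveolar cells, macrophages and lymphocytes all share in.

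Averaged over the 3 particle conditions, rats that breathed smoke had less RNA from several genes of peptide processing and interferon signalling. The immunoproteasome subunits Psmb9 and Psmb10, the peptide transporter subunit Tap2, the ISGF3 subunit Irf9, the tethering factor Bst2 and the immunity-related GTPase Irgm fell, by 0.23 to 0.43 on the log2 scale. The antiviral enzyme Rsad2 rose, by 0.51. Thus 7 of 43 members passed, 6 lower and 1 higher, against 6.39% of all genes in either direction and 3.7% of all genes in the lower direction. On the side of the sign alone, 36 of 43 were lower under smoke against 58.0% of all genes, and the median difference was -0.18 against -0.021 for all genes. Members moved together within single rats, so such counts are not of independent genes. An unadjusted p under 0.05 was reached by 23 members, against 24.5% of all genes in either direction. Of the 23, 21 were lower, and the share of all genes in that direction is not given here. In a single comparison of 4 rats with 4, 1 member passed, the ubiquitin ligase Trim25, which fell by 0.83 in smoke with silica against air. This was 1 of 43, against 3.77% of all genes in that comparison. Differences are on the log2 scale with their standard error (SE), and calls are those of limma's moderated test with an adjusted p (Benjamini-Hochberg over all 14217 genes) under 0.05.

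**Figure D1:**
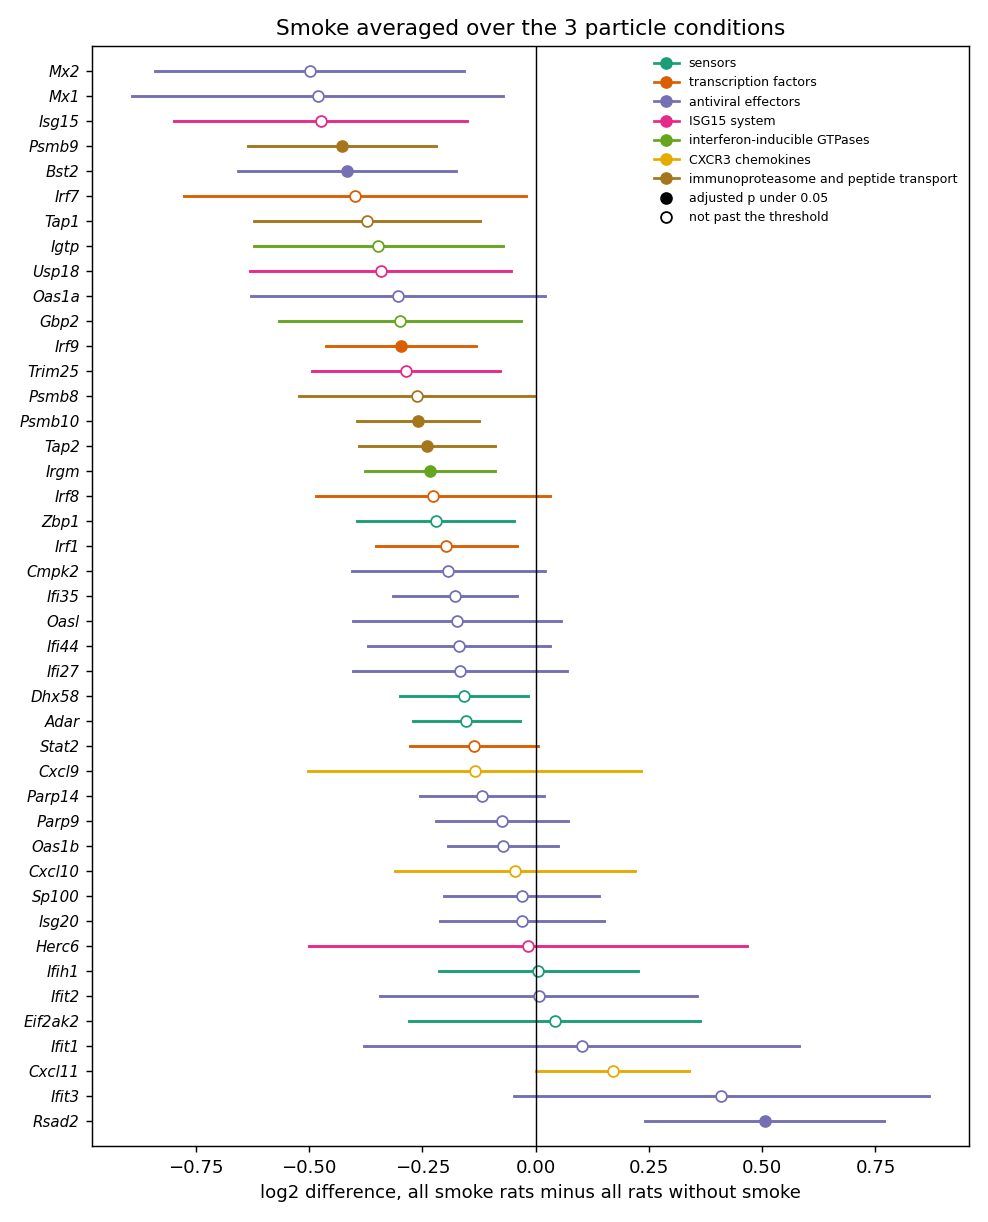
Each row is 1 of the 43 measured interferon-stimulated genes, coloured by role. The point is the log2 difference between the 12 smoke rats and the 12 rats without smoke, averaged over the 3 particle conditions, the line is its 95% interval, and filled points have an adjusted p under 0.05. Most genes lie left of 0, from Mx2 at -0.50 upward, while Rsad2 lies furthest right at 0.51.

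Promoters are shown because interferon acts through short elements next to the start site. They are those of the 6 genes past the threshold whose window held one of the cores described next, so the choice favours such cores. Psmb9 and Trim25 also passed and held neither core in their windows, and they are not printed. The stretches below are 100 bases each, 5′ to 3′ on the strand of the gene, taken from RefSeq promoters of the rat assembly GRCr8. Capitals mark GAAA, any 2 bases and GAAA again, searched on both strands as an ISRE core, or TTC, any 3 bases and GAA, which reads the same on both strands, as a GAS core. In Bst2 the GAS core and a pair of ISRE cores overlap and are capitalised as 1 run. Psmb10 lies at chr19:50743293-50743392 on the minus strand, Tap2 at chr20:4652297-4652396 on the minus strand and Tap1 at chr20:4668585-4668684 on the minus strand. Bst2 lies at chr16:18255025-18255124 on the minus strand, Irgm at chr10:33742579-33742678 on the minus strand, Irf9 at chr15:33065717-33065816 on the plus strand and Rsad2 at chr6:48788188-48788287 on the minus strand. Tap1, which did not pass, is included as the divergent neighbour of Psmb9.
Psmb10: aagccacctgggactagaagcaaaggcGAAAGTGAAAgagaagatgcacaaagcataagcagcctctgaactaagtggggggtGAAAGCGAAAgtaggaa
Tap2: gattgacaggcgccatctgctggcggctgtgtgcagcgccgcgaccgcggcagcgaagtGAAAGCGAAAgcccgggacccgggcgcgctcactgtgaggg
Tap1: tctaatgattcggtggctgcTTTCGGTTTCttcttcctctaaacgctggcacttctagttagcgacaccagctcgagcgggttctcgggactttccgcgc
Bst2: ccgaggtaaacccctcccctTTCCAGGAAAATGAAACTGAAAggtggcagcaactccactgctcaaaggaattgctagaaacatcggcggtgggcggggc
Irgm: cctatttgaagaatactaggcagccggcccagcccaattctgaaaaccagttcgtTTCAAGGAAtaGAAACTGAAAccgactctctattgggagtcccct
Irf9: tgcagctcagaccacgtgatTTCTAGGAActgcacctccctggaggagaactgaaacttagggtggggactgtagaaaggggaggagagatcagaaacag
Rsad2: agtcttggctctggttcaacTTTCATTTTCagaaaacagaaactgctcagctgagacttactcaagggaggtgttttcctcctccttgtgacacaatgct

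An entry was found for 35 of the 43 members. The windows searched run from 250 bases before to 50 bases after the start. An ISRE core lay in 20 of the 35 windows, or 57.1%, against 3.92% of 33469 promoters of the same length. A GAS core lay in 12, or 34.3%, against 8.87%. Both cores lay in 7 members and neither in 10, Psmb9, Trim25, Mx1 and Stat2 among them. The windows of Psmb9 and Tap1 share 44 bases, since these genes start 456 bases apart and run in opposite directions. Among the members that passed, Psmb10, Tap2 and Rsad2 held only the ISRE core, Irf9 only the GAS core, and Bst2 and Irgm both. A match describes letters in a window and is not a measurement of binding.

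All arrays had medians between 7.26 and 7.32, and the RNA integrity number was 8.1 to 9.8 on the 19 arrays that give one. The mean of 9 markers of lung epithelium and endothelium, such as the surfactant gene Sftpc, lay between 12.89 and 13.24 in all 24 rats. Arrays of 3 rats stood apart, and all results that follow include them unless stated. The mean correlation to all remaining arrays was 0.944 for sand rat 302 and 0.982 for air rat 104. Both carried RNA of cardiac muscle, with the atrial light chain Myl7 at 11.51 in rat 302 and 12.04 in rat 104. Myl7 was at 9.33 and 9.15 in smoke rats 204 and 203, at 8.58 in silica rat 502 and between 4.56 and 7.98 in the other 19 rats. For rat 604 of the smoke with silica group the mean correlation was 0.980, and this rat had the highest level of the proliferation gene Mki67, at 8.90.

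Among the genes of peptide processing, all 5 members were lower under smoke and 3 of them fell, against 58.0% and 3.7% of all genes. Psmb9, which replaces a catalytic subunit of the standard proteasome when interferon is present, stood at 10.33, 10.50, 10.93 and 10.72 in air, at 10.57, 11.02, 10.68 and 10.22 in sand and at 10.90, 10.38, 10.67 and 10.41 in silica. With smoke Psmb9 stood at 10.37, 10.10, 10.06 and 10.28 in smoke, at 9.88, 9.98, 10.41 and 10.00 in smoke with sand and at 10.44, 10.04, 10.02 and 10.62 in smoke with silica. The groups overlapped, since sand rat 305 at 10.22 lay below some smoke rats, but in each particle condition the smoke mean was lower. The averaged difference was -0.43 ± 0.10 (SE), a 1.34-fold lower level (adjusted p = 0.0136 in limma). Psmb10, the subunit that takes the same role at another catalytic site, stood at 10.21, 10.24, 10.49 and 10.36 in air, at 10.41, 10.75, 10.26 and 9.95 in sand and at 10.48, 10.21, 10.36 and 10.27 in silica. With smoke Psmb10 stood at 10.20, 10.01, 9.99 and 10.08 in smoke, at 9.97, 9.96, 10.08 and 10.03 in smoke with sand and at 10.17, 10.01, 10.16 and 10.21 in smoke with silica. The rats given smoke lay between 9.96 and 10.21 and the air rats between 10.21 and 10.49, with rat 605 just above air rat 102 where the ranges met. Sand rat 305, at 9.95, was the lowest of all 24. Psmb10 fell by 0.26 ± 0.07 (SE, adjusted p = 0.0205 in limma).

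Tap2, which with Tap1 pumps peptides into the endoplasmic reticulum, stood at 8.96, 8.99, 8.84 and 9.04 in air, at 8.88, 9.45, 8.76 and 8.81 in sand and at 8.82, 8.92, 8.67 and 9.07 in silica. With smoke Tap2 stood at 8.95, 8.69, 8.70 and 8.64 in smoke, at 8.65, 8.66, 8.67 and 8.74 in smoke with sand and at 8.65, 8.57, 8.49 and 8.94 in smoke with silica. All smoke with sand rats lay below all sand rats, and sand rat 302 was the highest of all. Tap2 fell by 0.24 ± 0.07 (SE, adjusted p = 0.0496 in limma). Its partner Tap1 had a similar size of difference, -0.37 ± 0.12 (SE), and missed the threshold (adjusted p = 0.0644 in limma). A second probe set of Tap1, dim at a mean of 4.82, gave 0.01 for the same comparison. Psmb8, the third inducible subunit, stood at 10.34, 11.06, 11.39 and 10.89 in air, at 10.77, 11.00, 11.16 and 10.48 in sand and at 11.22, 10.60, 11.10 and 10.25 in silica. With smoke Psmb8 stood at 10.93, 10.46, 10.61 and 10.83 in smoke, at 10.12, 10.35, 10.64 and 10.33 in smoke with sand and at 10.81, 10.35, 10.74 and 10.91 in smoke with silica. The ranges overlapped in every condition, and the difference was -0.26 ± 0.12 (SE, adjusted p = 0.198 in limma).

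The genes around these members were examined as a list of 9 others of class I presentation, of which 2 fell and none rose. The shares over all genes were 3.7% and 2.69%. Nlrc5, the transactivator of class I genes, fell by 0.47 ± 0.13 (SE, adjusted p = 0.0373 in limma). Psme1, a subunit of the interferon-inducible proteasome cap, fell by 0.22 ± 0.06 (SE, adjusted p = 0.0261 in limma). The median of the 9 was -0.087.

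Among the 5 transcription factors all were lower under smoke and 1 fell, against 58.0% and 3.7% of all genes. Irf9, the DNA-binding subunit of ISGF3, stood at 9.96, 9.91, 9.99 and 9.94 in air, at 9.84, 10.23, 9.79 and 9.61 in sand and at 10.04, 9.67, 10.00 and 9.98 in silica. With smoke Irf9 stood at 9.69, 9.52, 9.34 and 9.59 in smoke, at 9.22, 9.69, 9.97 and 9.53 in smoke with sand and at 9.70, 9.57, 9.63 and 9.95 in smoke with silica. The air rats lay between 9.91 and 9.99 and above all 4 rats of the smoke group, whereas smoke with sand ranged from rat 402 at 9.22 to rat 405 at 9.97. Irf9 fell by 0.30 ± 0.08 (SE, adjusted p = 0.0283 in limma), and its second probe set gave -0.36.

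Stat2, the partner of Irf9, stood at 9.34, 9.52, 9.85 and 9.59 in air, at 9.57, 10.18, 9.67 and 9.52 in sand and at 9.55, 9.43, 9.47 and 9.50 in silica. With smoke Stat2 stood at 9.54, 9.45, 9.43 and 9.58 in smoke, at 9.27, 9.35, 9.62 and 9.49 in smoke with sand and at 9.42, 9.41, 9.44 and 9.58 in smoke with silica. Sand rat 302 was the highest and smoke with sand rat 402 the lowest, and the other rats overlapped. The difference was -0.14 ± 0.07 (SE, adjusted p = 0.224 in limma). Irf7, which amplifies type I interferon production, stood at 10.06, 10.33, 10.74 and 10.15 in air, at 10.56, 11.11, 10.41 and 9.95 in sand and at 10.15, 9.95, 10.50 and 10.43 in silica. With smoke Irf7 stood at 10.42, 9.34, 9.39 and 10.06 in smoke, at 9.09, 10.16, 10.87 and 9.79 in smoke with sand and at 9.81, 9.72, 10.43 and 10.47 in smoke with silica. Within the smoke group rats 203 and 204 were low and rat 201 was high, and the averaged difference was -0.40 ± 0.18 (SE, adjusted p = 0.18 in limma). Irf1, the factor that interferon gamma raises first, stood at 10.63, 10.60, 10.99 and 10.65 in air, at 10.62, 11.08, 10.63 and 10.39 in sand and at 10.73, 10.40, 10.56 and 10.42 in silica. With smoke Irf1 stood at 10.68, 10.53, 10.55 and 10.52 in smoke, at 10.46, 10.18, 10.43 and 10.47 in smoke with sand and at 10.58, 10.48, 10.05 and 10.40 in smoke with silica. All rats of smoke with sand and smoke with silica lay below all air rats, and the averaged smoke difference was -0.20 ± 0.08 (SE, adjusted p = 0.11 in limma). Irf8, a factor of myeloid cells, was at -0.23 ± 0.12 (SE, adjusted p = 0.268 in limma).

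The 18 antiviral effectors held the member that rose and the member with the widest differences. Of these, 14 were lower under smoke, 1 fell and 1 rose, against 58.0%, 3.7% and 2.69% of all genes. Bst2, a membrane protein that holds budding virions at the cell surface, stood at 11.81, 12.14, 11.66 and 11.80 in air, at 12.00, 12.03, 11.52 and 11.51 in sand and at 11.87, 11.80, 11.62 and 11.74 in silica. With smoke Bst2 stood at 11.39, 11.38, 11.32 and 11.67 in smoke, at 10.73, 11.82, 11.58 and 11.45 in smoke with sand and at 11.74, 11.08, 10.84 and 11.50 in smoke with silica. Rats 402, 603 and 604 were the lowest of all 24, and in smoke with sand rat 404 reached the level of the sand rats. Bst2 fell by 0.42 ± 0.12 (SE, adjusted p = 0.0345 in limma).

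Rsad2, also named viperin, makes a chain-terminating nucleotide that stops viral polymerases. It stood at 9.28, 9.69, 10.03 and 9.65 in air, at 9.40, 9.0004, 9.30 and 9.22 in sand and at 8.97, 8.89, 9.44 and 9.06 in silica. With smoke Rsad2 stood at 9.66, 10.30, 9.33 and 9.43 in smoke, at 9.64, 9.53, 9.66 and 10.37 in smoke with sand and at 9.95, 9.88, 10.55 and 9.69 in smoke with silica. The 5 lowest values were of sand and silica rats without smoke, and both smoke with dust groups lay wholly above their dust controls. Rsad2 rose by 0.51 ± 0.13 (SE, adjusted p = 0.0205 in limma). That average joined 0.01 ± 0.22 without particles, 0.57 ± 0.22 with sand and 0.93 ± 0.22 with silica (SE). The interaction of smoke and silica was 0.92 ± 0.31 (SE, adjusted p = 1 in limma), so a difference between the conditions was not established. Cmpk2, a mitochondrial nucleotide kinase whose gene lies beside Rsad2, did not share this direction, at -0.19 ± 0.10 (SE, adjusted p = 0.253 in limma).

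**Figure D2:**
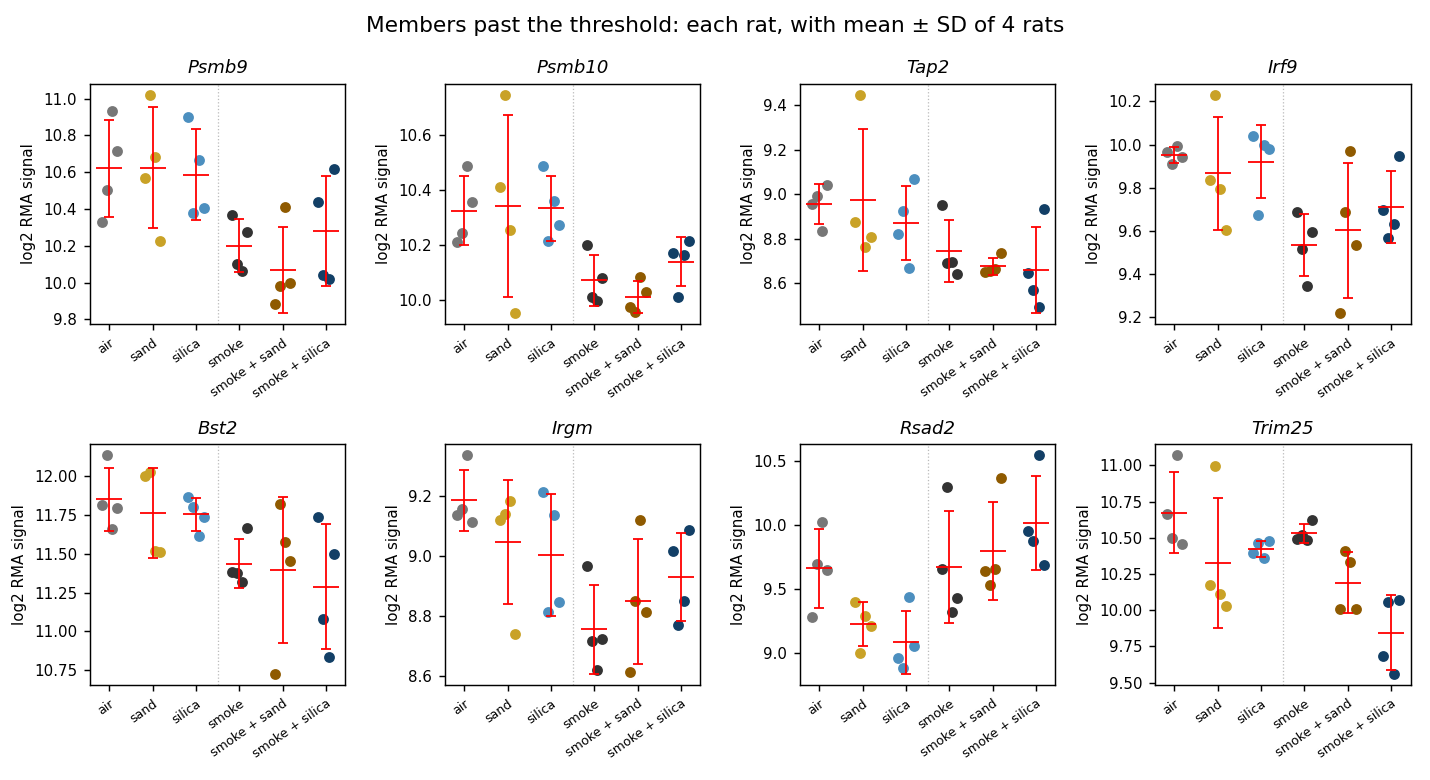
Each panel is 1 of the 8 members past the threshold in any comparison, with the log2 RMA signal on a vertical axis of its own and 1 point for each rat. Red marks are the mean and SD of 4 rats, and the dotted line parts the groups without smoke from those with smoke. Psmb10 shows all smoke rats at or below 10.21, Rsad2 shows sand or silica rats in the 5 lowest places, and Trim25 shows the smoke with silica rats at 10.07 or lower.

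Mx1, a dynamin-like GTPase that traps viral nucleocapsids and a standard readout of type I interferon, stood at 8.59, 8.71, 8.98 and 8.39 in air, at 8.34, 7.94, 8.28 and 7.997 in sand and at 8.36, 7.70, 8.85 and 8.32 in silica. With smoke Mx1 stood at 7.69, 7.62, 6.94 and 7.90 in smoke, at 6.88, 7.99, 8.88 and 7.55 in smoke with sand and at 8.23, 7.44, 8.91 and 8.66 in smoke with silica. The 4 smoke rats lay below every air rat, but smoke with sand and smoke with silica each spread over more than 1 log2 unit and reached the air level in rats 405, 604 and 605. The averaged difference was -0.48 ± 0.20 (SE, adjusted p = 0.135 in limma). Mx2, its paralogue, was at -0.50 ± 0.16 (SE, adjusted p = 0.0696 in limma), and its dimmer second probe set was at -0.31.

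Ifit3, which binds foreign RNA together with Ifit1, stood at 8.54, 8.50, 8.60 and 8.97 in air, at 8.04, 7.46, 8.37 and 8.69 in sand and at 8.32, 8.02, 8.56 and 8.29 in silica. With smoke Ifit3 stood at 10.48, 8.22, 8.23 and 8.60 in smoke, at 7.82, 8.94, 9.39 and 8.77 in smoke with sand and at 8.75, 8.51, 8.98 and 8.59 in smoke with silica. Rat 201 stood at 10.48 and the next rat of the smoke group at 8.60. The averaged difference was positive, 0.41 ± 0.22 (SE, adjusted p = 0.258 in limma). Rat 201 also had the highest level of neutrophil markers: the mean of 8 such genes was 10.24 there and 8.10 to 8.57 in the other smoke rats. The part of those cells in the Ifit3 value was not tested. Ifit1 was at 0.10 ± 0.23 and Ifit2 at 0.01 ± 0.17 (SE). Sand rat 302, included in these averages, stood at 7.28 in Ifit2 and the other sand rats at 8.95 to 9.18.

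Oas1a, which makes the messenger that activates RNase L, was at -0.30 ± 0.16 (SE) and its relatives Oasl and Oas1b at -0.17 ± 0.11 and -0.07 ± 0.06. The rest of the effectors did not pass and lay between -0.19 for Cmpk2 and -0.03 for Sp100 and Isg20, an exonuclease of single-stranded RNA.

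In the ISG15 system a ubiquitin-like protein is joined to others and removed again. All 4 members were lower under smoke, against 58.0% of all genes, and none passed in limma. An unadjusted p under 0.05 was reached by 3 of them, against 24.5% of all genes. Isg15 itself stood at 10.08, 10.19, 10.50 and 10.21 in air, at 10.12, 10.29, 10.10 and 9.67 in sand and at 9.89, 9.66, 10.00 and 9.90 in silica. With smoke Isg15 stood at 10.01, 9.17, 8.75 and 9.68 in smoke, at 8.63, 9.67, 10.35 and 9.36 in smoke with sand and at 9.73, 9.51, 10.02 and 10.04 in smoke with silica. Rats 204 and 402 were the lowest of all and rat 405 reached the air level. The difference was -0.47 ± 0.16 (SE), a 1.39-fold lower level (adjusted p = 0.0684 in limma). Usp18, the protease that removes Isg15 and shuts the type I receptor, stood at 9.14, 9.17, 9.36 and 9.01 in air, at 8.78, 9.45, 8.94 and 8.57 in sand and at 9.05, 8.71, 9.23 and 8.999 in silica. With smoke Usp18 stood at 8.54, 8.50, 8.15 and 8.76 in smoke, at 7.85, 8.83, 9.31 and 8.46 in smoke with sand and at 8.79, 8.56, 9.36 and 9.20 in smoke with silica. The smoke group lay below the air group, and the other smoke groups overlapped with their controls. The averaged difference was -0.34 ± 0.14 (SE, adjusted p = 0.132 in limma). Herc6, the ligase that attaches Isg15 in rodents, was at -0.02 ± 0.23 (SE, adjusted p = 0.975 in limma). Sand rat 302, included in this average, stood at 4.85 in Herc6 and the other sand rats at 7.12 to 7.40.

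**Figure D3:**
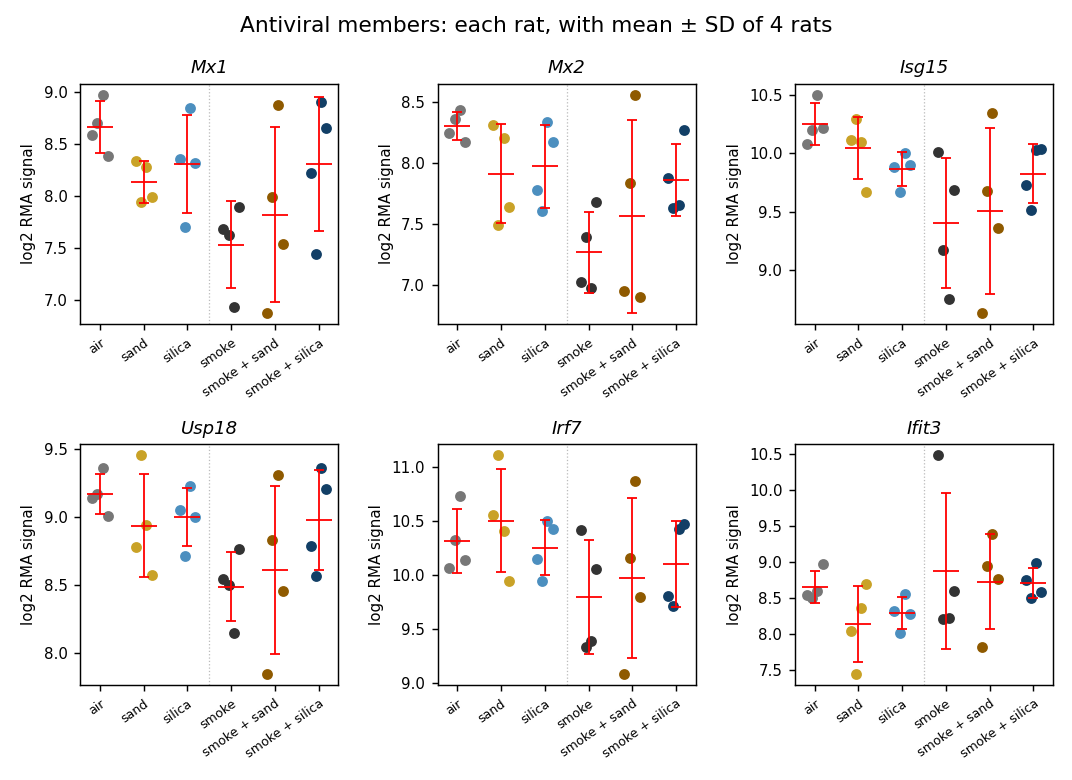
Each panel is 1 antiviral or regulatory member, with the log2 RMA signal on a vertical axis of its own, 1 point for each rat and the mean and SD of 4 rats in red. In Mx1, Mx2, Isg15 and Usp18 the 4 smoke rats lie below the 4 air rats, the smoke with sand rats are widely spread, and Ifit3 has 1 smoke rat at 10.48.

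Trim25, a ligase that ubiquitinates the sensor RIG-I and is itself a target of Isg15, had another pattern. It stood at 10.67, 10.50, 11.07 and 10.46 in air, at 10.17, 11.00, 10.11 and 10.03 in sand and at 10.39, 10.46, 10.36 and 10.48 in silica. With smoke Trim25 stood at 10.49, 10.52, 10.49 and 10.62 in smoke, at 10.01, 10.41, 10.33 and 10.01 in smoke with sand and at 9.69, 10.06, 9.56 and 10.07 in smoke with silica. The order of the group means ran from air at 10.67 to smoke with silica at 9.84, and each group of smoke with dust lay wholly below the smoke group. Against air, Trim25 in smoke with silica fell by 0.83 ± 0.17 (SE), a 1.78-fold lower level with no overlap of the groups (adjusted p = 0.00904 in limma). This was 1 of 43 members called, against 3.77% of all genes. Air rat 104, at 11.07, was the highest of all 24 rats in Trim25 and rat 604, at 9.56, the lowest. Leaving out 1 rat at a time gave differences from -0.91 to -0.70. Against air, smoke with sand was at -0.48 ± 0.17 (SE, adjusted p = 0.24 in limma). Silica added to smoke gave -0.69 ± 0.17 (SE, adjusted p = 0.203 in limma), and without rat 302, which adds only to the shared spread here, the adjusted p was 0.028. These comparisons share the air or the smoke rats.

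Of the interferon-inducible GTPases, which attack vacuoles of intracellular pathogens, all 3 were lower under smoke and 1 fell. The shares over all genes were 58.0% and 3.7%. Irgm stood at 9.14, 9.16, 9.34 and 9.11 in air, at 9.12, 9.14, 9.18 and 8.74 in sand and at 9.22, 8.81, 9.14 and 8.85 in silica. With smoke Irgm stood at 8.97, 8.72, 8.62 and 8.72 in smoke, at 8.61, 8.85, 9.12 and 8.81 in smoke with sand and at 9.02, 8.77, 8.85 and 9.09 in smoke with silica. Every rat of the smoke group lay below every air rat, while sand rat 305 and silica rats 502 and 504 lay among the smoke rats. Irgm fell by 0.23 ± 0.07 (SE, adjusted p = 0.0473 in limma).

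Gbp2, a guanylate-binding protein raised by interferon gamma, stood at 10.13, 10.17, 10.62 and 10.41 in air, at 10.34, 9.32, 10.47 and 9.84 in sand and at 10.38, 9.90, 10.30 and 9.93 in silica. With smoke Gbp2 stood at 10.01, 9.63, 9.53 and 9.91 in smoke, at 9.56, 9.69, 10.31 and 9.69 in smoke with sand and at 10.14, 9.89, 9.53 and 10.35 in smoke with silica. The smoke group lay below the air group, sand rat 302 was the lowest of all, and the difference was -0.30 ± 0.13 (SE, adjusted p = 0.154 in limma). Igtp, another immunity-related GTPase, was at -0.35 ± 0.13 (SE, adjusted p = 0.11 in limma).

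None of the 3 chemokines that draw CXCR3-bearing T cells passed, with 1 of them past an unadjusted p of 0.05 in limma. The share of all genes past that limit was 24.5%. Cxcl10 stood at 5.91, 5.76, 6.56 and 6.06 in air, at 5.66, 5.97, 6.16 and 5.99 in sand and at 6.27, 5.74, 5.89 and 5.91 in silica. With smoke Cxcl10 stood at 6.30, 5.46, 5.57 and 5.95 in smoke, at 5.50, 6.13, 6.29 and 6.07 in smoke with sand and at 5.76, 5.55, 6.40 and 6.37 in smoke with silica. The ranges overlapped in all conditions, and the difference of -0.05 ± 0.13 (SE) had a 95% interval from -0.31 to 0.22. Cxcl11 was at 0.17 ± 0.08 (SE, adjusted p = 0.203 in limma). Cxcl9 was at -0.13 ± 0.18 (SE), with 0.03 from its second probe set. Among the 5 nucleic acid sensors none passed in limma, and 3 had an unadjusted p under 0.05, against 24.5% of all genes. The Z-RNA sensor Zbp1 was at -0.22 ± 0.08 and the RNA editor Adar at -0.15 ± 0.06 (SE). The RIG-I-like sensors Dhx58 and Ifih1 were at -0.16 ± 0.07 and 0.01 ± 0.11, and the kinase Eif2ak2 at 0.04 ± 0.15 (SE). Sand rat 302, included here, was low in Ifih1 at 6.45 (the other sand rats 7.54 to 7.82) and in Eif2ak2 at 6.37 (8.09 to 8.32).

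The 3 comparisons of smoke within a particle condition use different rats, so they can be set beside each other. In smoke alone against air, 0 of 43 members passed, against 0.893% of all genes, while 38 of 43 were lower against 53.3% of all genes. The median was -0.25 against -0.0096 for all genes. At an unadjusted p under 0.05 in limma, 14 members were lower and 0 higher, against 4.4% and 5.56% of all genes. In 16 members the 4 smoke rats lay wholly below the 4 air rats, against 5.08% of all genes, and in 0 wholly above, against 4.86%. These 16 were Mx1, Mx2, Isg15, Ifit2, Irf9, Usp18, Ifi44, Gbp2, Psmb10, Tap1, Cmpk2, Eif2ak2, Sp100, Zbp1, Igtp and Irgm.

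The members nearest to the threshold in smoke alone were Mx2 at -1.04 ± 0.28 (SE), a 2.05-fold lower level (adjusted p = 0.104 in limma), Irgm at -0.43 ± 0.12 (SE) and Mx1 at -1.13 ± 0.34 (SE). The last was a 2.19-fold lower level, the widest difference of all members (adjusted p = 0.154 in limma). Without rat 405, which enters only the shared spread, 1 member passed, Mx2 with an adjusted p of 0.0324 in limma. Fitted on the 8 arrays of these groups alone, 5 members passed, against 1.19% of all genes in that fit.

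With sand in both groups, 0 of 43 passed, against 1.29% of all genes, and 31 were lower with a median of -0.24 against -0.045 for all genes. At an unadjusted p under 0.05 in limma, 9 were lower and 1 was higher, against 16% and 4.54% of all genes. Nearest to the threshold were Psmb9 at -0.56 ± 0.17 (SE, adjusted p = 0.0938 in limma), Psmb10 at -0.33 ± 0.11 (SE, adjusted p = 0.117 in limma) and Dhx58 at -0.31 ± 0.12 (SE). The median was -0.15 without rat 302 and -0.098 without rat 402. Without rat 305 there were 2 calls, against 4.94% of all genes, Psmb9 and Psmb10 (adjusted p = 0.0329 and 0.0176 in limma).

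With silica in both groups, 0 of 43 passed, against 0.00703% of all genes, and the median was -0.072 against -0.0098 for all genes. At an unadjusted p under 0.05 in limma, 2 were lower and 1 was higher, against 3.96% and 4.21% of all genes. Rsad2 at 0.93 ± 0.22 (SE, adjusted p = 0.136 in limma), Trim25 at -0.58 ± 0.17 (SE) and Bst2 at -0.47 ± 0.20 (SE) were nearest. Without rat 302, which again enters only the shared spread, Trim25 passed with an adjusted p of 0.047 in limma.

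Lower in all 3 comparisons were 26 of 43 members, or 60.5%, against 26.9% of all genes. Higher in all 3 were 3 members, Ifit3, Rsad2 and Cxcl11, or 6.98%, against 17.6% of all genes. For Ifit3 in smoke alone, rat 201 stood at 10.48 and the other smoke rats at 8.22 to 8.60, against 8.50 to 8.97 in air. For Rsad2 the smoke rats, at 9.33 to 10.30, overlapped with the air rats at 9.28 to 10.03. The antiviral genes with the widest differences in smoke alone lay near 0 with silica: Mx1 went from -1.13 to 0.00, Mx2 from -1.04 to -0.11 and Isg15 from -0.84 to -0.04. In the interaction of smoke and silica, 36 of 43 members were positive with a median of 0.18 against -0.0038 for all genes. None passed in limma, nor did any of the 14217 genes, a background of 0%. At an unadjusted p under 0.05, 7 were positive, against 1.1% of all genes. Mx1 stood at 1.13 ± 0.48, Mx2 at 0.92 ± 0.40 and Isg15 at 0.80 ± 0.38 (SE, adjusted p = 1 for each in limma). Mx1, Mx2 and Isg15 were picked for their wide difference in smoke alone, which the interaction subtracts. Their interaction values are therefore not an independent check. For smoke and sand the interaction had a median of 0.15 against -0.042 for all genes, with 0 members called, against 0.00703% of all genes, and 0 at an unadjusted p under 0.05 in limma, against 8.84%. Nearest were Ifit2 at 0.75 ± 0.41, Rsad2 at 0.56 ± 0.31 and Parp14 at 0.28 ± 0.16 (SE).

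**Figure D4:**
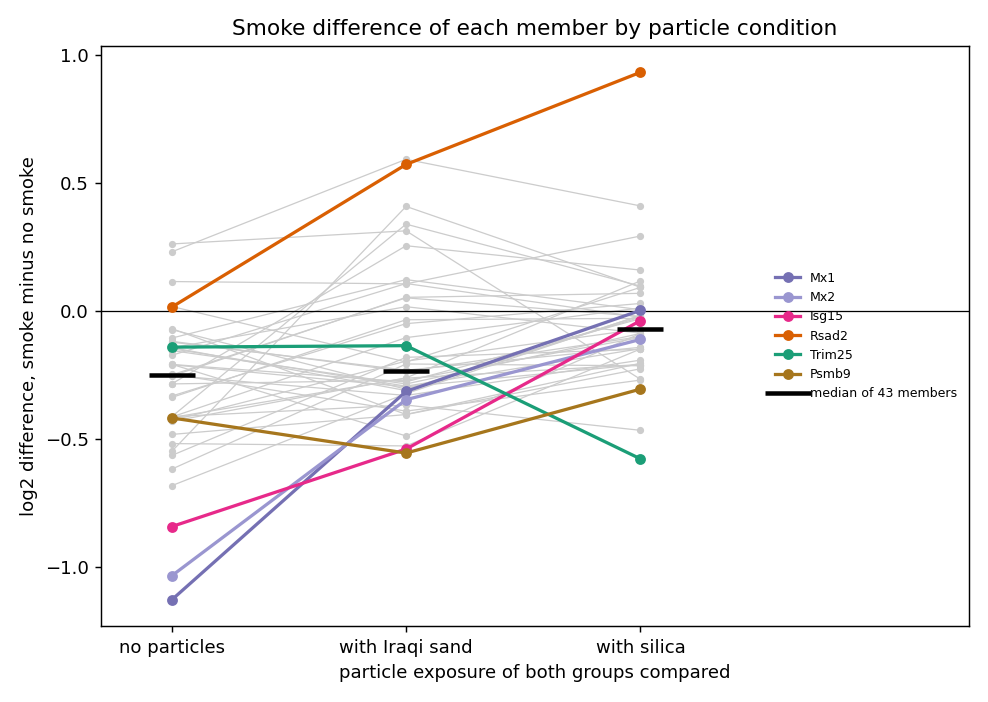
Each line joins the log2 difference of 1 member between smoke and no smoke in rats without particles, with Iraqi sand and with silica, from 4 rats against 4 in each. The black bars are medians of the 43 members, at -0.25, -0.24 and -0.072. Mx1, Mx2 and Isg15 climb from the lowest values toward 0, Rsad2 climbs to 0.93 and Trim25 drops to -0.58.

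The dusts alone called no member. In sand against air 31 of 43 were lower, the median was -0.11 against 0.037 for all genes, and 0 passed, against 0.0281% of all genes, with 2 at an unadjusted p under 0.05 in limma, against 10.2%. Nearest were Ifit2 at -0.72 ± 0.29 (SE), which was -0.27 without rat 302, then Parp14 at -0.28 ± 0.11 and Trim25 at -0.35 ± 0.17 (SE). In silica against air 36 were lower, the median was -0.13 against -0.0095 for all genes, and 0 passed, against 0.141% of all genes, with 1 at an unadjusted p under 0.05 in limma, against 5%. Nearest were Rsad2 at -0.58 ± 0.22, Parp14 at -0.23 ± 0.11 and Irgm at -0.18 ± 0.12 (SE). Both comparisons share the 4 air rats.

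Under smoke, silica gave 29 of 43 members a higher level, with a median of 0.14 against -0.012 for all genes and 0 calls, against 0.0141% of all genes. At an unadjusted p under 0.05 in limma 5 passed, against 8.29% of all genes in either direction. Of the 5, 4 were higher, and the share of all genes in that direction is not given here. Beside Trim25, Cxcl11 was at 0.32 ± 0.14 and Ifi44 at 0.38 ± 0.17 (SE). Ifi44, Cmpk2 and Eif2ak2 had the smoke with silica rats wholly above the smoke rats, 3 of 43 against 4.29% of all genes. Sand under smoke gave a median of 0.027 against -0.0094, with 0 calls, against 0.0141% of all genes, and 0 at an unadjusted p under 0.05 in limma, against 3.83%. Trim25 at -0.34 ± 0.17, Psmb8 at -0.35 ± 0.22 and Irf1 at -0.18 ± 0.13 (SE) were nearest. Averaged over smoke and air, 0 of 43 passed for sand, against 0% of all genes, and 0 for silica, against 0.345%, with 1 and 2 members at an unadjusted p under 0.05 in limma, against 5.22% and 11.7%. Trim25 was nearest in both, at -0.34 ± 0.12 and -0.47 ± 0.12 (SE), and its adjusted p for silica was 0.105, or 0.00945 without rat 302 in limma. Sand set against silica gave 0 calls, against 0.12% of all genes, with 2 members at an unadjusted p under 0.05 in limma, against 12.2%. Ifit2, Ifi44 and Igtp were nearest, at -0.45, -0.26 and -0.26, and the Ifit2 difference was -0.22 without rat 302.

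In the combined exposures against air the members were again mostly lower. Smoke with sand had 39 of 43 lower, a median of -0.34 against -0.011 for all genes, and 0 calls, against 0.978% of all genes. At an unadjusted p under 0.05 in limma, 19 members were lower and 0 higher, against 6.51% and 4.41% of all genes, and 8 lay wholly below the air rats, against 7.17%. Psmb9 at -0.55 ± 0.17, Parp14 at -0.33 ± 0.11 and Igtp at -0.65 ± 0.23 (SE) were nearest to the threshold. The median was -0.18 without rat 402. Without rat 302 there were 2 calls, against 3.97% of all genes, and without rat 405 there was 1, against 0.844%.

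Smoke with silica had 36 of 43 lower, with a median of -0.20 against -0.018 for all genes. There 7 members lay wholly below the air rats, against 10% of all genes, namely Isg15, Irf1, Oas1a, Oas1b, Trim25, Adar and Irgm. Trim25 was the 1 call, against 3.77% of all genes, and without rat 302 there were 5, against 12.5% of all genes.

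The members moved together within single rats, so their counts by sign, unadjusted p and overlap are not counts of independent genes. Rat 402 of smoke with sand was the lowest of its 4 in 34 of 43 members, or 79.1%, against 28.1% of all genes, and rat 405 of the same group was the highest in 30, or 69.8%, against 21.7%. In smoke, rat 204 was lowest in 27 (62.8%, against 20.8%) and rat 201 highest in 27 (62.8%, against 26.6%). In silica, rat 502 was lowest in 26, or 60.5%, against 22.9%, and in smoke with silica rat 603 was lowest in 24, or 55.8%, against 20.4%. Air rat 104 was the highest of its group in 29, or 67.4%, against 36.1% of all genes, and it enters every comparison with air. Without it the median difference of the members was -0.16 in the smoke average, -0.22 in smoke alone and -0.12 in smoke with silica against air, the last from -0.20. Rat 302 was highest in 24, or 55.8%, close to its 59.6% over all genes. The mean of the 43 members ran from 8.37 to 9.04 in smoke with sand, wider than in air, where it ran from 8.90 to 9.16. Members also varied more between rats of a group than other genes did: their median residual SD was 0.288, from 0.140 to 0.614, against 0.153 for all genes.

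**Figure D5:**
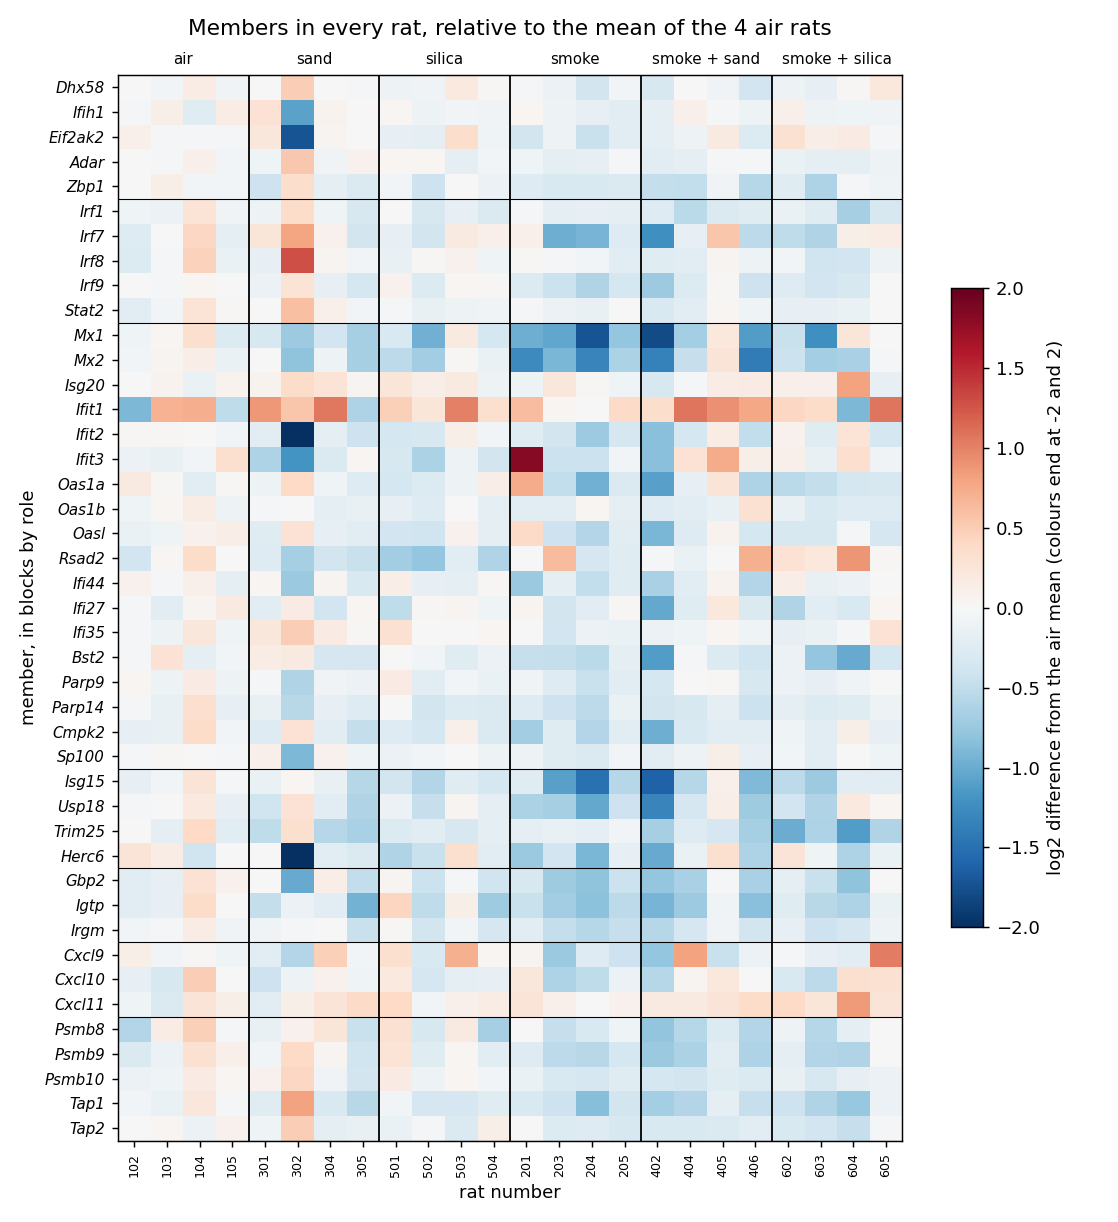
Rows are the 43 measured members in blocks by role and columns are the 24 rats in their 6 groups, numbered below. Colour is the log2 difference from the mean of the 4 air rats, blue for lower and red for higher, limited to -2 and 2. Rats 204 and 402 are blue over most rows, rat 405 is close to white beside its group mates, and rat 302 mixes strong blue and red.

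The members were also counted by the interferon that mainly leads them. Of 22 type I genes, 16 were lower, 1 fell and 1 rose, with a median of -0.17. These calls are 4.55% in each direction, near the 3.7% of all genes that fell and the 2.69% that rose. Of 13 genes led by interferon gamma, 12 were lower and 4 fell, or 30.8%, with a median of -0.24. The share of all genes that were lower was 58.0%. No test set these lists against each other.

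Of the ligands, Ifng stood between 3.63 and 3.98 in all 24 rats, near the low end of the array's range of 2.90 to 15.04, and its smoke difference was -0.06 ± 0.04 (SE, adjusted p = 0.382 in limma). Ifnb1 was at -0.01 ± 0.05 (SE), from 5.12 to 5.56. Il18, a cytokine that induces interferon gamma and is made by macrophages and epithelium, rose by 0.67 ± 0.17 (SE, adjusted p = 0.0211 in limma), the 1 of 6 measured ligand and inducer genes that passed. Of 9 receptor and kinase genes 1 rose, the shared subunit Il10rb, by 0.10 ± 0.03 (SE, adjusted p = 0.0492 in limma). It also rose in smoke with silica against air, by 0.20 ± 0.05 (SE, adjusted p = 0.0402 in limma). Ifngr1 was at -0.07 ± 0.04 (SE, adjusted p = 0.354 in limma). None of 6 signal transducers and brakes and none of 8 upstream sensors and relays passed. In the smoke average 6.39% of all genes passed in either direction.

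Markers of several other cell types moved with smoke in the same rats. Of all genes, 58.0% were lower under smoke, 3.7% fell, 2.69% rose and 24.5% had an unadjusted p under 0.05 in limma. All 20 T and NK cell markers were lower under smoke and 8 of them fell, Cd3d, Cd3e, Cd3g, Cd2, Cd5, Cd247, Lck and Zap70. The mean of the 20 ranged from 8.64 to 8.77 in air, 8.27 to 9.04 in sand and 8.32 to 8.48 in silica. It ranged from 7.82 to 8.49 in smoke, 7.81 to 8.29 in smoke with sand and 7.30 to 8.80 in smoke with silica. Of 11 alveolar macrophage markers 9 rose, with a mean of 9.93 to 10.38 in air and 10.83 to 11.34 in smoke. Of 8 neutrophil markers 2 rose, with a mean of 7.15 to 8.04 in air and 8.10 to 10.24 in smoke. Of 6 airway secretory markers 2 rose, the mucin Muc5b and Agr2, with a mean of 7.45 to 9.48 in air and 7.92 to 10.66 in smoke. Of 6 B and plasma cell markers all were lower and 1 fell, Jchain, with a mean of 7.37 to 8.32 in air and 7.26 to 7.72 in smoke. Of the 9 markers of lung epithelium and endothelium 8 were lower and 3 fell, Ager, Aqp5 and Cldn5, with a mean of 13.08 to 13.16 in air and 13.00 to 13.12 in smoke. All 7 cardiac muscle markers were lower and none passed in limma, with 0 at an unadjusted p under 0.05, a median of -0.58, and a mean of 5.93 to 9.91 in air and 5.60 to 7.80 in smoke. All 8 proliferation markers were higher and none passed in limma, 4 with an unadjusted p under 0.05. The mean of 5 dendritic cell markers was 7.36 to 7.50 in air, 7.28 to 7.57 in smoke and 7.11 to 7.39 in smoke with silica. The signal scale has no true zero, and the part of these cells in the member results was not tested. In RNA of a whole lobe, fewer cells of a type and less RNA per cell cannot be told apart.

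Some calls of the smoke average lay near the threshold and were lost when 1 rat was left out. Psmb9, Psmb10 and Rsad2 passed without any 1 of the 24 rats. Irf9 no longer passed without rat 504, 204, 406, 603 or 604, with an adjusted p up to 0.0552. Bst2 no longer passed without rat 102, 103, 301, 501, 502, 504, 201, 203, 204, 406, 603 or 604, with an adjusted p up to 0.0641. Irgm kept its call only without rat 302, 305, 502, 504, 201, 405 or 605, and Tap2 only without rat 302, 304, 305, 503, 201 or 605, and the adjusted p otherwise reached 0.0847 and 0.091 in limma. Isg15 passed without rat 305, 201 or 405 (adjusted p = 0.0468, 0.0415 and 0.0182 in limma), Gbp2 without rat 302 (0.041) and Mx1 without rat 405 (0.0471). The count of 7 became 4 without rat 102, 103, 301, 501, 504 or 203 and 3 without rat 204, 406, 603 or 604, with 4.12% to 6.15% of all genes called in these fits. Without rats 302, 104 and 604 together it was 4, and Irf9, Bst2 and Irgm had adjusted p-values of 0.064, 0.0625 and 0.113 in limma. Trim25 in smoke with silica against air passed without any 1 rat, with an adjusted p up to 0.0481. With arrays weighted by their quality the smoke average called 16 members, against 18.6% of all genes in that fit, and smoke alone 14, against 7.87%.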

How the data were processed

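Per the submitters' processing notes, the authors made the deposited log2 values with RMA, which corrects background, equalises array quantiles and combines probes into probe sets (version not given in the sources used here). RMA removes shifts shared by most genes and compresses changes of dim probe sets. Groups came from the sample labels. Of 31099 probe sets, 57 controls were left out, 20826 of the rest had 1 symbol, 436 several and 9780 none, which gave 14217 genes by the brightest probe set.

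A model with 6 group means was fitted to 24 arrays with limma 3.58.1 in R 4.3.3 (18 residual degrees of freedom, two-sided, Benjamini-Hochberg within each of 15 comparisons). The number of arrays limits the precision. The fit was tested on simulated data. Members and lists were chosen with earlier results of these data known. Every rat's value is given for members that passed anywhere and for 10 set genes: Mx1, Isg15, Ifit3, Irf7, Stat2, Usp18, Irf1, Gbp2, Cxcl10 and Psmb8. Other members are given where among the 3 of largest statistic in a comparison, or by range. Alternatives were variance trend, a brightness filter, probe set means, array weights, scaling, arrays in the fit and rats left out. Promoters came from RefSeq, GRCr8.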

Additional observations from a re-analysis of the deposited data

Results flagged for a closer look

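In 22 of the 258 combinations of a member and a group, or 8.53%, 1 of the 4 rats stood far from the other 3. Chance alone would flag about 1 in 20 of independent combinations. Members moved together within single rats, so these combinations are not independent and no excess can be read from the 8.53%. The criterion was Dixon's 95% critical value for a group of 4. No explanation was tested.

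Sand rat 302 accounted for 8 of these. It was the lowest of its group in Ifit2 at 7.28 (the others 8.95 to 9.18), Herc6 at 4.85 (7.12 to 7.40) and Eif2ak2 at 6.37 (8.09 to 8.32). It was the highest in Irf8 at 10.53 (9.09 to 9.30), Oasl at 8.17 (7.64 to 7.72), Dhx58 at 7.48 (6.97 to 7.01), Tap2 at 9.45 (8.76 to 8.88) and Trim25 at 11.00 (10.03 to 10.17).

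In the smoke group rat 201 was high in Ifit3 at 10.48 (the others 8.22 to 8.60) and in Tap2 at 8.95 (8.64 to 8.70), and rat 204 in Oas1b at 4.44 (4.17 to 4.20). In smoke with silica rat 605 was high in Stat2 at 9.58 (9.41 to 9.44) and in Cxcl9 at 7.78 (6.55 to 6.74), rat 604 in Oasl at 7.85 (7.55 to 7.57) and rat 602 in Ifih1 at 7.62 (7.42 to 7.45). In smoke with sand rat 406 was high in Rsad2 at 10.37 (9.53 to 9.66), rat 404 was low in Irf1 at 10.18 (10.43 to 10.47) and rat 402 was low in Cmpk2 at 8.38 (9.05 to 9.14). In air rat 104 was high in Irf1 at 10.99 (10.60 to 10.65) and rat 102 in Eif2ak2 at 8.19 (8.05 to 8.06). Silica rat 502 was low in Irf9 at 9.67 (9.98 to 10.04) and sand rat 305 in Irgm at 8.74 (9.12 to 9.18).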

How the results depend on the processing

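Of 57 named differences in 15 comparisons, 4 passed in the reported fit and in every alternative run, Psmb9, Psmb10 and Rsad2 in the smoke average and Trim25 in smoke with silica against air. Array quality weights raised the calls to 16 in the smoke average (18.6% of all genes were called in that fit), 14 in smoke alone (7.87%), 6 in smoke with silica (17.4%), 4 in smoke with sand (8.24%), 2 in smoke under silica (1.76%), 2 in silica under smoke (2.41%), and 1 each in sand alone (1.41%), sand averaged (0.626%) and silica averaged (5.93%). Fitting only the arrays of the groups compared gave 5 in smoke alone (1.19%), 2 in smoke with silica (3.9%) and 1 in silica averaged (2.19%). Quantile normalization run again gave 2 in smoke with silica (4.28%). Without rats 302, 104 and 604 the calls were 4 in the smoke average (8.31%), 1 in silica under smoke (0.0985%) and 1 in silica averaged (1.21%). Leaving out 1 rat at a time gave 3 to 10 calls in the smoke average, 1 to 5 in smoke with silica, 0 to 2 in smoke with sand and in smoke under sand, and 0 to 1 in smoke alone, smoke under silica, silica under smoke and silica averaged. The smoke difference of Cxcl10, at -0.05, ran from -0.098 to 0.0102 when 1 rat was left out and was above 0 without rat 104, 402 or 603, and no called difference changed sign in these alternatives. The causes were not tested. Tap2 also missed the threshold with a variance trend (adjusted p = 0.051 in limma) and after quantile normalization (0.0586), and Irgm after the latter (0.0523). No paired analysis was possible because each rat number occurs in 1 group only.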
